A study of Mus musculus with 32 samples.

Results

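The 8 genes described here carry out the transport and loading of peptides on MHC class I molecules: Tap1, Tap2, Tapbp, Tapbpl, Erap1, Calr, Canx and Pdia3. They were chosen by symbol from the 12451 genes of the count table, and all 8 were present. Tap1, Tap2, Tapbp, Tapbpl and Erap1 are dedicated to antigen presentation (5 genes), whereas Calr, Canx and Pdia3 are general chaperones of the endoplasmic reticulum (ER) that also take part in it (3 genes). The samples were wells of YUMM3.3, a mouse melanoma cell line with skin as its labelled tissue, measured by BRB-seq, a barcoded bulk RNA-seq in which wells are pooled after labelling their cDNA and the 3′ ends of transcripts are counted. The 32 wells formed 8 groups of 4: untreated cells, cells given Activin-A at 40 ng/ml (the dose in the labels and methods, where figure legends of the study give a higher one), cells given IFN-γ at 20 ng/ml and cells given both factors at these doses, each harvested after 4 hrs or after 12 hrs. The design sets each factor against no treatment, and the combination against each factor alone, in a culture of tumor cells only.

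Class I molecules display peptides from the cytosol at the cell surface, where CD8+ T cells read them. Peptides cut by the proteasome enter the ER through a transporter made of Tap1 and Tap2, are trimmed by the aminopeptidase Erap1, and are placed on class I molecules by a loading complex in which tapasin (Tapbp) bridges the transporter, calreticulin (Calr) and the disulfide isomerase ERp57 (Pdia3). Calnexin (Canx) assists the folding of new class I heavy chains, and IFN-γ is a classical inducer of the dedicated genes of this pathway in many cell types.

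Total counts per well ranged from 654539 to 1455074, with a median of 988019.5, and the 4 wells of a group were the replicates. Replicate 1 of the cells given Activin-A for 4 hrs, the well with the highest total, stood apart: a chi-square comparison of counts gave 2.45 to 2.89 per gene between it and the other 3 wells of its group, against 1.16 to 1.54 in the 45 other replicate pairs. The labels name no separate cultures, so that p-values measure the spread between wells. All 8 melanocytic markers of the list used here were in the table, with a summed level between 321 and 459 CPM (TMM-normalized counts scaled by library total) in every well, whereas 2 of 6 leukocyte markers were listed, with a summed level of at most 18.4 CPM, and 0 of 3 endothelial and 0 of 3 keratinocyte markers. The 2 fibroblast markers summed to between 5.78 and 24.3 CPM. As bulk RNA was counted, fewer cells with a transcript and less transcript per cell cannot be told apart.

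In the GENCODE annotation of GRCm38, 3 of the dedicated genes lie on chromosome 17, in the MHC region. Tap1 is at chr17:34187553-34197225 and Tap2 at chr17:34203527-34216321, both on the + strand with 6302 bases between them, and Tapbp is at chr17:33915899-33929292 on the + strand. Tapbpl is at chr6:125223933-125231860 on the - strand and Erap1 at chr13:74639568-74693201 on the + strand. The chaperones are dispersed, with Calr at chr8:84841850-84846934 (- strand), Canx at chr11:50293961-50325673 (- strand) and Pdia3 at chr2:121413775-121438687 (+ strand). The submitters' processing notes name GRCm39 for the counts, so these positions describe the genes and not the reads. Tap1 and Psmb9, which encodes an immunoproteasome subunit, are transcribed in opposite directions, and the exons of the pair share 212 bases at their 5′ ends.

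Promoter windows of RefSeq (GRCm38.p6), reaching from 250 bases before to 50 bases after a gene's start, were found for 6 of the 8 genes, all but Tap2 and Tapbpl. The RefSeq start used lies inside the GENCODE gene by 3579 bases for Tapbp, 285 for Erap1, 127 for Pdia3 and 3 or fewer for the others. Of 3 motifs searched on both strands, 2 are reported here: a binding element of interferon regulatory factors (GAAANNGAAA) and the ER stress response element (ERSE, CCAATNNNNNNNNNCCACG). Among 32851 mouse windows of the same length, 3.44% held the letters of the interferon regulatory factor element and 0.119% those of the ERSE. The windows of Tapbp and Pdia3 held no match to either motif and are not printed. The stretches below are that of Tap1, also without a match, and those around the matches in Erap1, Calr and Canx. They were partly picked by their matches and do not compare the dedicated genes with the chaperones. They are written 5′ to 3′ on the gene's strand, with bases that match a motif in capitals.
Tap1, -250 to -1, chr17:34187306-34187555 (+ strand): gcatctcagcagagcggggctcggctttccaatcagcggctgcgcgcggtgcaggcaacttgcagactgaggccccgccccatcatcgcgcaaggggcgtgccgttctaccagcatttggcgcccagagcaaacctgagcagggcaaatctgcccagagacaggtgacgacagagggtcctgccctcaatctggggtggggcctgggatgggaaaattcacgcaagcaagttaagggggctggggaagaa
Erap1, -100 to 10, chr13:74639753-74639862 (+ strand): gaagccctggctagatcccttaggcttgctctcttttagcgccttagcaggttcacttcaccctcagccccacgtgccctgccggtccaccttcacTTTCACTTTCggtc
Calr, -200 to -100, chr8:84847031-84847131 (- strand): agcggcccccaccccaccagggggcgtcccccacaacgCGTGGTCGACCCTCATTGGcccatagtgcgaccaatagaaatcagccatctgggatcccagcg
Canx, -200 to -100, chr11:50325773-50325873 (- strand): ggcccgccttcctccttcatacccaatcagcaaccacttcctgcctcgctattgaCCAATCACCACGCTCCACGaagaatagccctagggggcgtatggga
The capitals in Erap1 are the interferon regulatory factor element read from the opposite strand, TTTCACTTTC, at positions -4 to 6 relative to the start. Those in Calr are the ERSE on the opposite strand, at -162 to -144, and those in Canx are the ERSE on the gene's strand, at -145 to -127. The windows of Tap1, Tapbp and Pdia3 held neither set of letters, which says nothing of sites outside them. The Tap1 window shared 275 of its 300 bases with that of Psmb9.

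Tap1, a subunit of the peptide transporter, had the highest log2 fold change of the 8 genes in cells given IFN-γ alone, close to that of Tap2 at 4 hrs. Its level in the 4 untreated wells was 20.1, 22.9, 24.0 and 25.8 CPM at 4 hrs and 18.4, 24.0, 22.96 and 18.6 CPM at 12 hrs. With IFN-γ it was 271, 294, 258 and 309 CPM at 4 hrs and 389, 379, 398 and 390 CPM at 12 hrs. No well with IFN-γ came near an untreated well. The log2 fold change was 3.63 at 4 hrs (SE 0.13, 12.4-fold, edgeR quasi-likelihood test with Benjamini-Hochberg adjustment, adjusted p = 6.55e-32). At 12 hrs it was 4.20 (SE 0.11, 18.4-fold, adjusted p = 1.47e-56).

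Tap2, the other subunit of the transporter, was scarce without IFN-γ. Untreated wells had 11.3, 5.73, 5.45 and 9.92 CPM at 4 hrs and 10.0, 8.90, 7.65 and 11.6 CPM at 12 hrs, which corresponds to 5 to 13 counts. Wells with IFN-γ had 111, 90.9, 86.1 and 112 CPM at 4 hrs and 105, 113, 117 and 112 CPM at 12 hrs. The levels at the 2 times overlapped, and both sets lay above every untreated well. Tap2 rose by a log2 fold change of 3.60 at 4 hrs (SE 0.20, edgeR adjusted p = 9.25e-23) and 3.54 at 12 hrs (SE 0.19, adjusted p = 5.27e-32), that is 12.1-fold and 11.6-fold. At 12 hrs Tap2 passed the filter on low counts only through the wells with IFN-γ. Once tested it had to differ there, so that the p-value at 12 hrs is no support for the rise.

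Tapbp encodes tapasin, which holds class I molecules at the transporter until a peptide binds. It was expressed without IFN-γ, at 76.8, 113, 62.1 and 81.4 CPM in untreated wells at 4 hrs and at 84.4, 87.2, 92.9 and 81.3 CPM at 12 hrs. With IFN-γ the wells had 282, 300.5, 320 and 284 CPM at 4 hrs. At 12 hrs they had 676, 608, 624 and 642 CPM, more than in any well at 4 hrs. The log2 fold change of Tapbp was 1.83 at 4 hrs (SE 0.10, edgeR adjusted p = 3.76e-22) and 2.88 at 12 hrs (SE 0.08, adjusted p = 1.28e-55).

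Tapbpl encodes TAPBPR, a relative of tapasin that edits the peptides of class I molecules outside the loading complex. Its counts in untreated wells were 5, 6, 4 and 5 at 4 hrs and 9, 3, 0 and 5 at 12 hrs. With IFN-γ they were 52, 49, 37 and 57 at 4 hrs and 40, 55, 43 and 59 at 12 hrs. Every well with IFN-γ exceeded every untreated well, although the untreated level was close to the limit of detection: the untreated well with 0 counts allows up to 3 counts, or 3.29 CPM, for counting error only. The log2 fold change was 3.37 at 4 hrs (SE 0.26, edgeR adjusted p = 1.41e-16) and 3.59 at 12 hrs (SE 0.29, adjusted p = 9.09e-20). At both times Tapbpl passed the filter on low counts only through the wells with IFN-γ. Once tested it had to differ, so that these p-values are no support for the rise.

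Erap1 encodes the aminopeptidase that trims peptides in the ER. Untreated wells had 30.6, 15.3, 27.3 and 25.8 CPM at 4 hrs and 23.03, 15.1, 15.3 and 18.6 CPM at 12 hrs. Wells with IFN-γ had 94.9, 77.1, 71.5 and 79.2 CPM at 4 hrs and 135, 141, 118 and 125 CPM at 12 hrs. The 3 sets, untreated, IFN-γ at 4 hrs and IFN-γ at 12 hrs, did not overlap. Erap1 rose by a log2 fold change of 1.71 at 4 hrs (SE 0.16, edgeR adjusted p = 1.18e-12) and 2.81 at 12 hrs (SE 0.15, adjusted p = 6.19e-32). Of the 1000 exon bases nearest its 3′ end, 834 are also exonic in Cast, the calpastatin gene on the opposite strand, and whether strand was used in counting is not given in the sources used here. Tap2 shares 258 of its 1000 such bases with Gm15821, a gene on the opposite strand that is not in the count table. Cast stayed between 127 and 192 CPM over the 32 wells, with a log2 fold change for IFN-γ of -0.12 at 4 hrs (adjusted p = 0.673) and 0.08 at 12 hrs (adjusted p = 0.720).

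The chaperones were abundant and varied little between the 8 groups. Calr, which encodes the calcium-binding lectin chaperone of the loading complex, had group means between 383 and 429 CPM, and its 32 wells ranged from 330 to 460 CPM. Canx, the membrane-bound counterpart of calreticulin, had group means between 829 and 939 CPM, with wells from 811 to 1006 CPM. Pdia3, the isomerase of the loading complex, had group means between 955 and 1073 CPM, with wells from 862 to 1149 CPM. Wells with and without IFN-γ overlapped for each of these genes. The median over the 16 wells with IFN-γ was 406 CPM for Calr, 871 CPM for Canx and 1033 CPM for Pdia3. Over the 16 wells without it the medians were 412, 887 and 959 CPM, so that Pdia3 had the higher median with IFN-γ and the other two the lower.

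**Figure D1:**
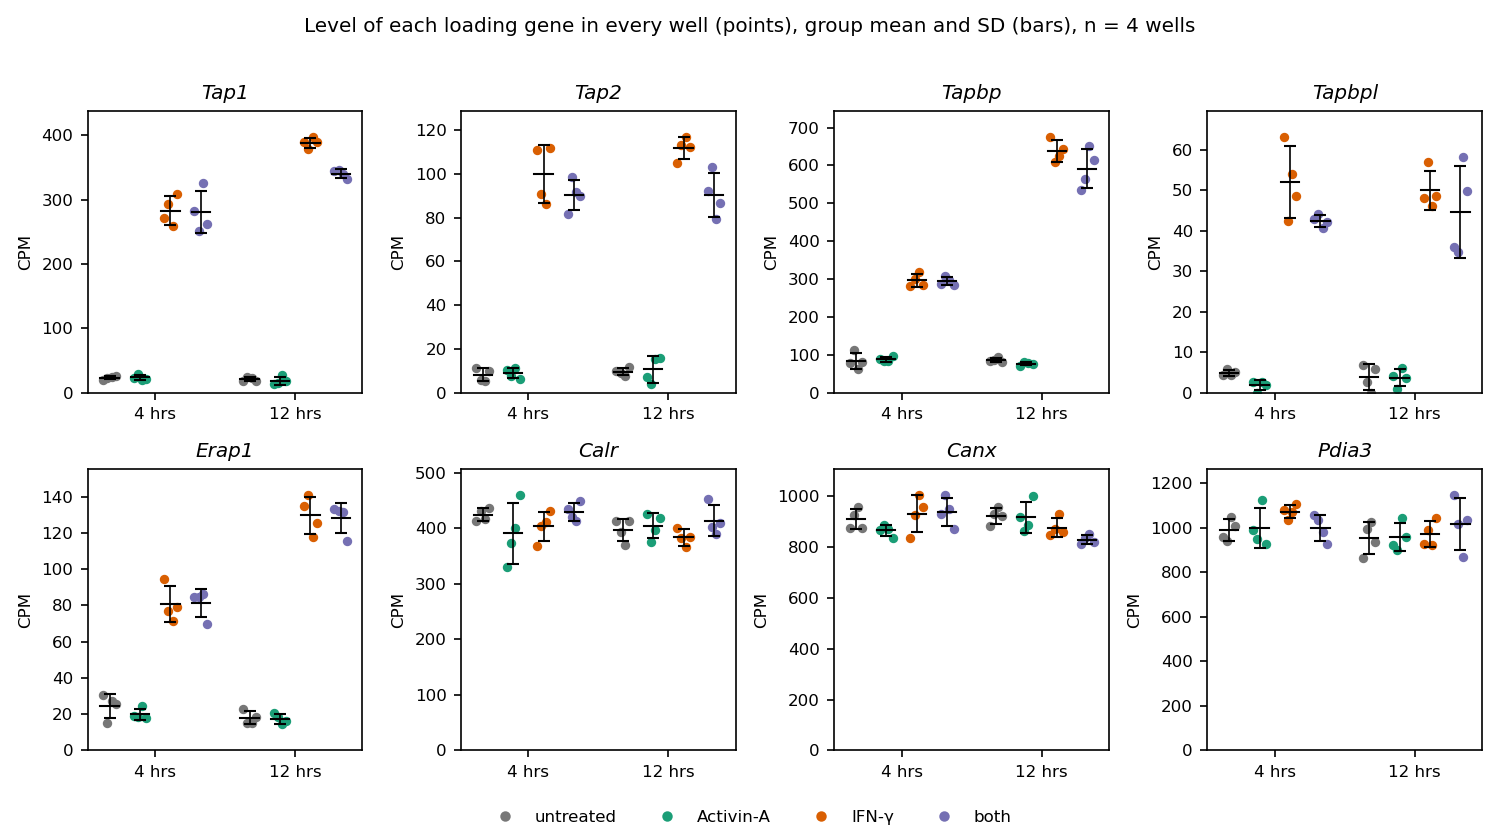
Level in CPM (linear axes from 0) of each of the 8 genes in every well at 4 hrs and at 12 hrs, with points for wells coloured by treatment, and bars for the mean and SD of 4 wells. For Tap1, Tap2, Tapbp, Tapbpl and Erap1 all 16 wells with IFN-γ, alone or with Activin-A, lie above all 16 wells without it, and for Calr, Canx and Pdia3 they overlap. The share of all genes separated in this way was not computed. Tapbpl at both times and Tap2 at 12 hrs passed the filter on low counts only through the wells with IFN-γ.

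The genes dedicated to peptide loading were separated from the chaperones in the IFN-γ comparison. Of the dedicated genes, 5 of 5 rose at 4 hrs and 5 of 5 at 12 hrs, against a background of 4.29% of 9137 genes tested at 4 hrs and 6.43% of 8971 at 12 hrs that were called higher. For each of the 5, every well with IFN-γ lay above every untreated well at both times, which held for 6.04% of all genes at 4 hrs and 7.87% at 12 hrs. Of the chaperones, 0 of 3 were called at either time by edgeR or by DESeq2's Wald test, and 1, Pdia3 at 4 hrs, had an unadjusted p under 0.05. The median log2 fold change of the dedicated genes that passed the filter on low counts without the wells given IFN-γ was 2.71 at 4 hrs (4 genes) and 2.88 at 12 hrs (3 genes), that of the chaperones 0.04 and -0.06, and that of all genes tested -0.01 at both times. The 95% intervals show how large a change of the chaperones the data allow. At 12 hrs they reached from -0.19 to 0.08 for Calr, from -0.18 to 0.03 for Canx and from -0.09 to 0.14 for Pdia3. The interval of Pdia3 at 4 hrs was 0.003 to 0.25, around a log2 fold change of 0.13 (edgeR unadjusted p = 0.0448, adjusted p = 0.357). Its wells had 1079, 1033, 1070.3 and 1109 CPM with IFN-γ at 4 hrs and 959, 939, 1050.0 and 1007 CPM without, so that the lowest well with IFN-γ lay below the highest untreated one.

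The filter on low counts bears on the count of 5 dedicated genes. Tapbpl passed it at both times, and Tap2 at 12 hrs, only through the wells with IFN-γ, so that once tested they had to differ. The other 3 dedicated genes at 12 hrs, and the other 4 at 4 hrs, passed it in the wells without IFN-γ too.

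**Figure D2:**
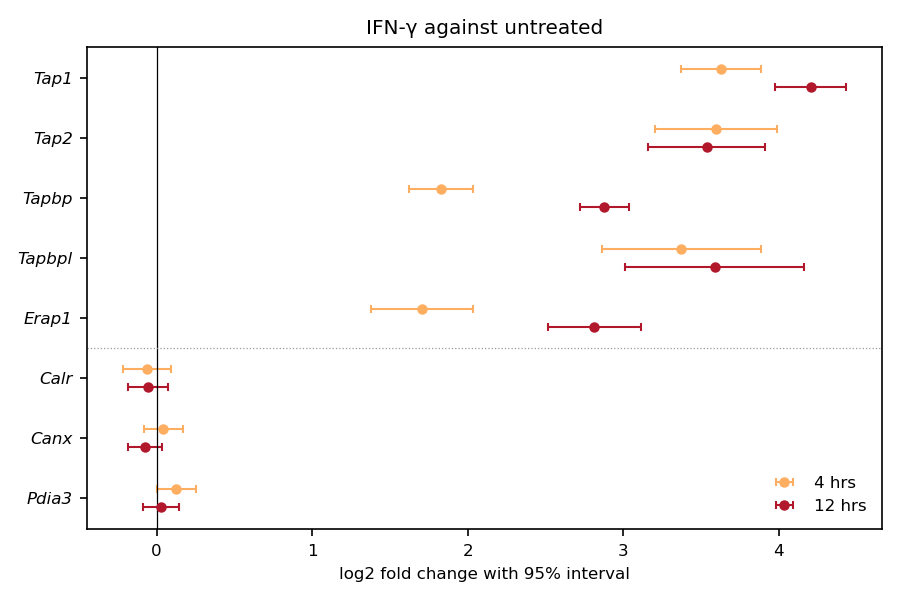
Log2 fold change of IFN-γ against untreated cells for the 8 genes at 4 hrs and at 12 hrs, with bars for the 95% interval and a dotted line between dedicated genes and chaperones. The dedicated genes lie between 1.71 and 4.20, and the chaperones between -0.07 and 0.13.

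The IFN-γ effects at the 2 times were compared gene by gene, and the genes were not tested against each other. The increase due to IFN-γ was larger at 12 hrs than at 4 hrs for Tapbp, by 1.06 on the log2 scale (SE 0.14, edgeR over all 32 wells, adjusted p = 2.51e-08). The same held for Erap1, by 1.12 (SE 0.24, adjusted p = 0.00461). These were 2 of the 8 genes, against a background of 0.439% of 9332 genes called higher in this contrast. The call for Erap1 rested on 1 untreated well: without replicate 1 of the untreated cells at 4 hrs, which had the highest Erap1 level of that group, the difference was 0.98 (adjusted p = 0.0649). Tap1 had a difference of 0.59 that did not pass adjustment (SE 0.22, unadjusted p = 0.00925, adjusted p = 0.430). Tap2 and Tapbpl had differences of -0.05 (95% interval -0.72 to 0.63) and 0.23 (-0.78 to 1.24) respectively, and the interval of Tapbpl holds the differences of Tapbp and Erap1. The chaperones lay between -0.11 and 0.02, with adjusted p of at least 0.858.

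Within the wells given IFN-γ alone, 3 of the 8 genes were higher at 12 hrs than at 4 hrs, against a background of 4.84% of genes. Tapbp was higher by 1.11 on the log2 scale (SE 0.07, edgeR adjusted p = 8.99e-23), Erap1 by 0.69 (SE 0.11, adjusted p = 4.38e-06) and Tap1 by 0.45 (SE 0.08, adjusted p = 5.45e-06). For each of the 3, the wells at the 2 times did not overlap, which was so for 7.13% of genes. Tap2 had a log2 difference of 0.16 (95% interval -0.08 to 0.39) and Tapbpl of -0.03 (-0.37 to 0.31). Of the chaperones, 0 were called, with log2 differences of -0.08 for Calr, -0.09 for Canx and -0.14 for Pdia3. The 95% interval of Pdia3 was -0.27 to -0.01 (edgeR unadjusted p = 0.0305, adjusted p = 0.174). In untreated cells, 0 of the 8 genes were called between the times by edgeR or DESeq2, where the background was 4.90%, and Erap1 alone had an unadjusted p under 0.05 (log2 difference -0.43, SE 0.21, adjusted p = 0.271).

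Activin-A, a ligand of the TGF-β family that signals through Smad proteins, was first compared with no treatment. None of the 8 genes was called at either time by edgeR or DESeq2, while 1.64% of all genes were called at 4 hrs and 2.41% at 12 hrs. Without the well that stood apart, 0 of the 8 genes and 1.47% of all genes were called at 4 hrs. Tap1 had 22.9, 28.9, 20.1 and 21.6 CPM in wells with Activin-A at 4 hrs and 12.8, 15.4, 26.7 and 18.4 CPM at 12 hrs, values that overlapped those of untreated wells. Its counts there were 15 to 35. The log2 fold change was -0.01 at 4 hrs (95% interval -0.42 to 0.39) and -0.23 at 12 hrs (-0.67 to 0.21), the latter between -0.47 and -0.05 with each well left out in turn. Erap1 had 19.0, 18.2, 24.5 and 18.0 CPM at 4 hrs and 20.7, 18.2, 14.4 and 15.99 CPM at 12 hrs, again overlapping untreated wells. Tap2 had at most 16 counts in a well with Activin-A. The chaperones were measured more tightly, with all intervals between -0.27 and 0.15 at both times.

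A pair of genes had wells that did not overlap in CPM between Activin-A and untreated cells, of which Tapbpl overlapped in counts. Tapbpl had 4, 0, 3 and 2 counts in wells with Activin-A at 4 hrs, against 5, 6, 4 and 5 in untreated wells. These are counts of 6 or fewer, and the well with 0 counts was also the one with the lowest total, where 3 counts equal 4.58 CPM, more than the 4.36 CPM of the lowest untreated well, so that the separation rests on taking 0 as exact. The log2 fold change was -1.21 (SE 0.51, unadjusted p = 0.0238, edgeR adjusted p = 0.326), and this was the sole gene of the 8 with an unadjusted p under 0.05. At 4 hrs 2.89% of genes had wells with Activin-A below all untreated wells. Tapbp at 12 hrs had 71.0, 80.7, 78.1 and 75.0 CPM with Activin-A, just below the 81.3 CPM of the lowest untreated well. Its log2 fold change was -0.19 (95% interval -0.42 to 0.04, edgeR adjusted p = 0.573), in a comparison where 3.29% of genes lay wholly lower.

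The comparison of both factors with IFN-γ alone shows how the IFN-γ-induced levels stood when Activin-A was added. At 4 hrs 0 of the 8 genes were called by edgeR or DESeq2 and none had an unadjusted p under 0.05, with 0.810% of all genes called. Tap1 had 282, 251, 325 and 263 CPM with both factors, within the range of IFN-γ alone and beyond it on either side. Erap1 had 84.8, 84.9, 86.1 and 69.9 CPM and Tapbp 287, 308, 298 and 285 CPM, and both overlapped the wells with IFN-γ alone. The log2 fold changes of the 8 genes lay between -0.27 for Tapbpl and 0.08 for Calr.

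At 12 hrs 0 of the 8 genes were called by edgeR or DESeq2, with 1.03% of all genes called, but both subunits of the transporter had lower levels in every well with both factors. Tap1 had 344, 347, 339 and 332 CPM, all below the 379 CPM of the lowest well with IFN-γ alone. Tap2 had 92.0, 103, 79.1 and 86.8 CPM, all below 105 CPM. Such a separation downward was found for 3.32% of the genes tested. The log2 fold change was -0.19 for Tap1 (SE 0.07, 95% interval -0.33 to -0.05, unadjusted p = 0.00724, edgeR adjusted p = 0.228). For Tap2 it was -0.31 (SE 0.12, 95% interval -0.55 to -0.07, unadjusted p = 0.0122, adjusted p = 0.292). These were the 2 genes of the 8 with an unadjusted p under 0.05, and neither passed adjustment over all genes.

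The other members had overlapping wells in this comparison at 12 hrs. Tapbp had 536, 565, 651 and 613 CPM with both factors (log2 fold change -0.11, SE 0.06, edgeR adjusted p = 0.576). Tapbpl had a log2 fold change of -0.16 (SE 0.18) and Erap1 of -0.01 (SE 0.10, 95% interval -0.22 to 0.19). Leaving out each well in turn gave -0.16 to -0.06 for Tapbp and -0.32 to -0.06 for Tapbpl. Calr, Canx and Pdia3 had log2 fold changes of 0.11, -0.08 and 0.06. The difference between the Activin-A effects with and without IFN-γ, tested as an interaction, was called for 0 of the 8 genes at 4 hrs and at 12 hrs by edgeR or DESeq2, with 0 genes at an unadjusted p under 0.05, and over all genes edgeR called 0 of 9137 at 4 hrs and 1 of 8971 (0.0111%) at 12 hrs. The change of the Activin-A effect under IFN-γ from 4 to 12 hrs was called for 0 of the 8 genes as well, none with an unadjusted p under 0.05, and 0.0964% of all genes were called.

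**Figure D3:**
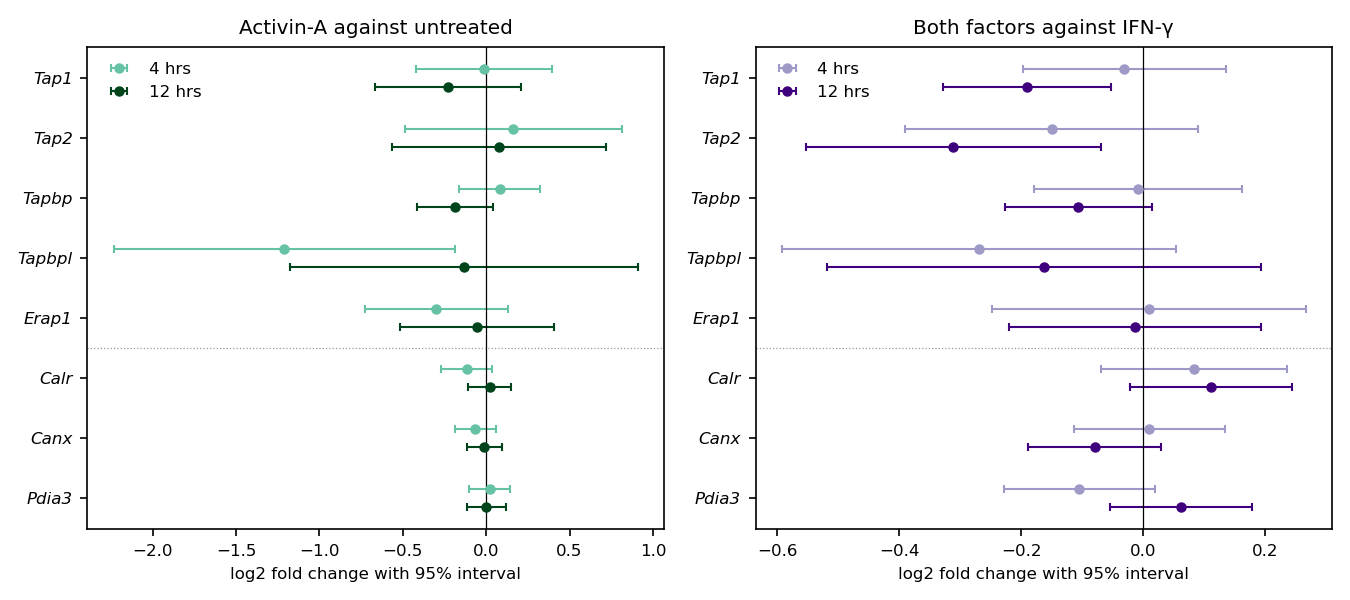
Log2 fold change with its 95% interval for the 8 genes in Activin-A against untreated cells (left) and in both factors against IFN-γ alone (right), at 4 hrs and at 12 hrs, on axes of different range. The widest intervals are those of Tapbpl, and at 12 hrs the intervals of Tap1 and Tap2 on the right lie below 0, although neither gene passed adjustment.

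Cells given both factors were also set against untreated cells and against Activin-A alone, comparisons that share wells with those above. Of the dedicated genes 5 of 5 were called higher in each of the 4 comparisons, and of the chaperones 0 of 3. As above, Tapbpl at both times and Tap2 at 12 hrs had to differ once tested, which leaves 4 dedicated genes at 4 hrs and 3 at 12 hrs. The background of genes called higher was 5.08% at 4 hrs and 6.14% at 12 hrs against untreated cells, and 4.41% and 6.18% against Activin-A. Against untreated cells at 12 hrs the log2 fold changes were 4.01 for Tap1, 3.23 for Tap2, 2.77 for Tapbp, 3.42 for Tapbpl and 2.80 for Erap1. Canx came closest to a call among the chaperones. It had 811, 835, 852 and 818 CPM with both factors at 12 hrs, below the 882 CPM of the lowest untreated well and the 862 CPM of the lowest well with Activin-A. The log2 fold change was -0.15 against untreated cells (SE 0.05, edgeR adjusted p = 0.0566) and -0.14 against Activin-A (SE 0.05, adjusted p = 0.0931), and 4.92% and 5.05% of genes were separated downward in the same comparisons.

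The order of the 8 groups was alike for the dedicated genes in its main step. The 4 groups without IFN-γ formed the lower end and neighbours among them overlapped for each of the 5 genes. A gap followed, and the 4 groups with IFN-γ formed the upper end. The share of all genes with such a gap was not computed. As above, Tapbpl at both times and Tap2 at 12 hrs had to differ once tested. For Tap1 the upper end ran from both factors at 4 hrs (mean 280 ± 32.7 CPM, SD, n = 4) and IFN-γ at 4 hrs (283 ± 22.6 CPM), which overlapped, to both factors at 12 hrs (341 ± 6.54 CPM) and IFN-γ at 12 hrs (389 ± 7.80 CPM), which did not overlap their neighbours. For Tapbp and Erap1 the 2 groups at 4 hrs lay below the 2 groups at 12 hrs, and groups of the same time overlapped. For Tap2 and Tapbpl all neighbours with IFN-γ overlapped. For Calr, Canx and Pdia3 every pair of neighbours overlapped in the order of the 8 groups.

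Other genes of the pathway were followed with lists, and the tested genes of those for class I molecules and for the immunoproteasome were called higher with IFN-γ. Of the class I molecules, beta-2 microglobulin and their activator Nlrc5, 8 of 10 listed genes were tested, and 8 of 8 rose at 4 hrs and 8 of 8 at 12 hrs, as called by edgeR. H2-Q4, H2-M3 and Nlrc5 passed the filter on low counts only through the wells with IFN-γ, at both times, and so had to differ, which leaves 5 genes that passed it without them, with a median log2 fold change of 0.82 at 4 hrs and 2.59 at 12 hrs. The background is the 4.29% and 6.43% of all genes called higher at the 2 times. B2m, the light chain, rose by 0.69 and 1.43, and the heavy chain H2-K1 by 0.82 and 2.59. Reads of class I heavy chains can be shared between near-identical copies, so that their values are uncertain. Of the immunoproteasome subunits and the PA28 activator, which shape the peptides that reach the transporter, 5 of 5 rose at both times. Psmb9, the neighbour of Tap1, rose by 4.04 at 4 hrs and by 5.18 at 12 hrs, and was the 1 gene of this list that passed the filter only through the wells with IFN-γ. The other 4 had a median of 2.64 and then 3.27.

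The lists of peptidases and of other ER machinery held 1 called gene each at 12 hrs, where 9.25% of all genes were called in either direction (5.06% at 4 hrs). Of 7 peptidases that can trim or destroy antigenic peptides, 1 rose at both times, the leucine aminopeptidase Lap3 (log2 fold change 1.50 and 1.84). Of 14 other ER chaperones and disulfide isomerases, 0 were called at 4 hrs and 1 was lower at 12 hrs, the chaperone BiP (Hspa5, log2 fold change -0.18, edgeR adjusted p = 0.0259). Of 9 enzymes of the calnexin cycle, 0 were called at 4 hrs and 1 rose at 12 hrs, the glycoprotein folding sensor Uggt1 (log2 fold change 0.60, edgeR adjusted p = 2.02e-05). Of 6 tested genes of the translocon, the signal peptidase and Bcap31, 0 were called at 4 hrs and 1 was lower at 12 hrs, the signal peptidase subunit Spcs3 (log2 fold change -0.32, adjusted p = 0.0328). The medians of these 4 lists lay between -0.08 and 0.07 at the 2 times.

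In the comparison of both factors with IFN-γ alone at 12 hrs, 2 of the 8 class I genes were lower, the heavy chain H2-K1 (log2 fold change -0.24, edgeR adjusted p = 0.00600) and H2-T23 (-0.31, adjusted p = 0.0106), and 0 of the 5 immunoproteasome and PA28 genes were called, where 0.568% of all genes were lower and 1.03% were called in either direction. The medians were -0.25 for the class I list, -0.11 for the immunoproteasome list, -0.16 for the dedicated loading genes and 0.06 for the chaperones, beside -0.01 for all genes.

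**Figure D4:**
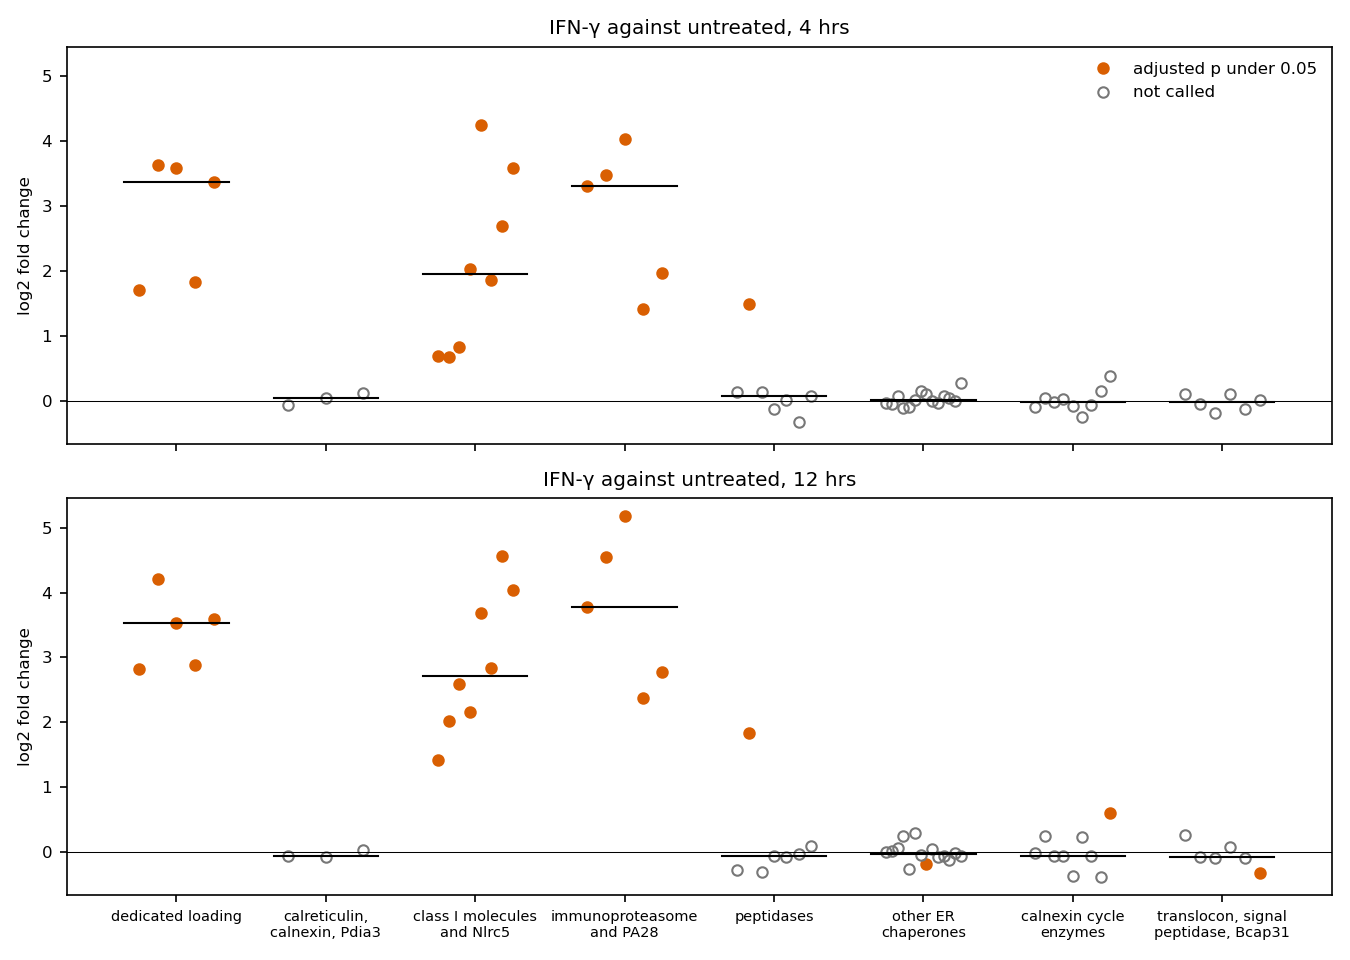
Log2 fold change of IFN-γ against untreated cells at 4 hrs (top) and 12 hrs (bottom) for the tested genes of 8 lists, with filled points for genes with an adjusted p under 0.05, open points for the others and a line at the median of all tested genes of the list. Over the genes that passed the filter on low counts without the wells given IFN-γ, the medians at 12 hrs are 2.88 for the dedicated loading genes, 2.59 for the class I genes and 3.27 for the immunoproteasome genes, and the medians of the lists of chaperones and peptidases lie around 0, with the peptidase Lap3 at 1.84.

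Across the 32 wells, which share the treatments, the dedicated genes varied together. Pearson's r of log2 CPM lay between 0.904 and 0.977 over their 10 pairs, whereas r lay between 0.073 and 0.089 over the 3 pairs of chaperones and between -0.261 and 0.315 over the 15 pairs of a dedicated gene and a chaperone. Among all genes that passed the filter, the 3 whose levels were most like those of Tap2 were Ifi204 (r = 0.983), Gbp7 (0.983) and Rnf213 (0.981), and for Tapbp they were Ly6a (0.988), Psme1 (0.987) and H2-T23 (0.984). These values describe the 32 wells and carry no test. They include the step between wells with and without IFN-γ given above, and so add no separate evidence to it.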

How the data were processed

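The deposited values are raw counts for each gene in each well, without normalization. Per the submitters' processing notes, STAR 2.7.10b, featureCounts and DESeq2 1.36.0 were used with GRCm39. The gene annotation, the strand setting and the use of molecular identifiers are not given in the sources used here. GENCODE M21 gave a symbol for 12437 of the 12451 Ensembl identifiers. No gene was above 0 in fewer than 4 wells, and totals ran from 654539 to 1455074.

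Genes were filtered with filterByExpr, normalized by TMM and tested with edgeR's quasi-likelihood test (edgeR 4.0.16, R 4.3.3) over the 16 wells of a time, or all 32 for contrasts between times, with Benjamini-Hochberg adjustment and calls at an adjusted p under 0.05. The SE is the log2 fold change over the root of F. CPM used TMM factors of all 32 wells, and log2 CPM for correlations a prior count of 2. Alternatives were DESeq2 1.42.0 (the test named in the study's methods), RLE normalization, no filter, at least 10 counts in every well, the replicate number as a block, other sets of wells in the fit, an adjusted p under 0.01 and each well left out in turn. Fits were tested on simulated data. The named genes are the 8 members, genes of the lists and, for Tap1, Tap2 and Tapbp, the 3 genes with the highest r, which for Tap1 are not reported here. Members and lists were chosen with earlier results of these data known.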

Additional observations from a re-analysis of the deposited data

Results flagged for a closer look

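Among the 64 combinations of gene and group tested for a well that stands apart, 3 were found, all for Erap1, where chance alone gives about 1 in 20. In cells given Activin-A for 4 hrs, replicate 3 had 24.5 CPM and the nearest other well 19.0 CPM. In cells given both factors for 4 hrs, replicate 4 had 69.9 CPM, below the 84.8 CPM of the nearest well. In cells given both factors for 12 hrs, replicate 4 had 116 CPM, below the 132 CPM of the nearest well. The Erap1 fold changes of both factors against untreated cells were called with each well left out in turn.

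The effect of IFN-γ differed between 12 hrs and 4 hrs for Tapbp, by 1.06 on the log2 scale (edgeR quasi-likelihood test, adjusted p = 2.51e-08), and for Erap1, by 1.12 (adjusted p = 0.00461). Untreated levels of these genes were not called different between the times. For Erap1, however, the untreated log2 difference was -0.43 (SE 0.21, edgeR unadjusted p = 0.0447, adjusted p = 0.271). Within wells given IFN-γ alone, Erap1 was higher at 12 hrs by 0.69, so that its difference of 1.12 also holds a lower untreated level at 12 hrs. The Tapbp call was made in all 16 fits that left out a well, with differences from 0.88 to 1.16, and the Erap1 call in 15.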

How the results depend on the processing

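Results here are 17 counts of called members and 82 log2 fold changes of single members. Requiring at least 10 counts in every well removed Tap2 and Tapbpl from the test, so that 3 instead of 5 members were called for IFN-γ or both factors against untreated cells and for both factors against Activin-A, at 4 and at 12 hrs. No other setting moved a count of members, among them DESeq2, RLE, no filter and an adjusted p under 0.01. Replicate numbers did not pair the wells (mean r of deviations between -0.0044 and 0.0039 for the same number, 8.06e-05 for different numbers), and with the number as a block 5 members were still called for IFN-γ at both times and 2 for its time difference. Leaving out wells gave 1 to 2 members for that time difference, 1 (Tapbp) without replicate 1 of the untreated cells at 4 hrs. Over all genes, DESeq2 called fewer than edgeR for Activin-A against untreated cells (92 against 150 at 4 hrs, 140 against 216 at 12 hrs), for both factors against IFN-γ (45 against 74, 56 against 92) or against Activin-A at 12 hrs (569 against 863) and for 12 against 4 hrs (295 against 457 untreated, 518 against 785 with IFN-γ), and the interaction at 12 hrs (1 gene) was called for 0 genes by DESeq2 and 8 without the filter, that at 4 hrs (0 genes) for 1 without the filter or with all 32 wells in the fit, and the Activin-A effect under IFN-γ over time (9 genes) for 5 by DESeq2. DESeq2 also called fewer genes for IFN-γ against untreated cells (377 against 462 at 4 hrs, 588 against 830 at 12 hrs). The same held for both factors against untreated cells (505 against 666, 617 against 883) and against Activin-A at 4 hrs (398 against 555). The background shares given above are those of edgeR. With only the wells compared in the fit, 120 genes were called for both factors against IFN-γ at 4 hrs. This setting was not run for interactions and time differences. Changes of sign were found only for log2 fold changes that were not called. Without the filter, Tapbp for both factors against IFN-γ at 4 hrs and Pdia3 for Activin-A at 12 hrs came to 0. The 3 genes most like Tap2 and Tapbp were the same with RLE and with a prior count of 0.5.

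With each well left out in turn, 21 of these values took either sign. For Activin-A against untreated cells at 4 hrs, Tap1 ran from -0.08 to 0.05, Tapbp from -0.02 to 0.27 and Pdia3 from -0.04 to 0.05. For both factors against IFN-γ at 4 hrs, Tap1 ran from -0.11 to 0.02, Tapbp from -0.03 to 0.02, Erap1 from -0.03 to 0.09 and Canx from -0.03 to 0.05. For both factors against untreated cells at 4 hrs, Pdia3 ran from 0.00 to 0.06. For IFN-γ against untreated cells at 12 hrs, Pdia3 ran from -0.02 to 0.06. For Activin-A against untreated cells at 12 hrs, Tap2 ran from -0.18 to 0.35, Tapbpl from -0.48 to 0.40, Erap1 from -0.17 to 0.12, Calr from -0.01 to 0.05, Canx from -0.05 to 0.01 and Pdia3 from -0.05 to 0.04. For both factors against IFN-γ at 12 hrs, Erap1 ran from -0.05 to 0.04 and Pdia3 from 0.00 to 0.13. For the IFN-γ effect at 12 hrs minus that at 4 hrs, Tap2 ran from -0.27 to 0.09, Tapbpl from -0.13 to 0.75 and Calr from -0.02 to 0.05. For IFN-γ at 12 hrs against 4 hrs, Tapbpl ran from -0.13 to 0.07.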
